A study of Mus musculus with 12 samples.

Results

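The genes described here are 8 rows of the mitochondrial genome in a gene-level RNA-seq count table of mouse bone-marrow dendritic cells and the exosomes that these cells released. They were chosen by name: the cytochrome c oxidase subunits COX1, COX2 and COX3, cytochrome b (CYTB), the ATP synthase subunits ATP6 and ATP8, and the ribosomal RNAs mt-Rnr1 (12S) and mt-Rnr2 (16S). They are 8 of 27179 rows of the table and 8 of its 15 mitochondrial rows, the other 7 being the complex I subunits. Marrow from the femurs of 6 C57Bl/6 mice was cultured over 7 days, the DMEM medium holding fetal calf serum at 10% and, at 10% too, supernatant of X-63 as the source of the growth factor GM-CSF. Each mouse gave 1 library of cells and 1 of exosomes, the latter taken from culture supernatant by ultrafiltration and differential ultracentrifugation. The 4 groups of 3 libraries were WT cells and WT exosomes (mice 33 and 42, female, and mouse 46, male), and cells and exosomes labelled as Sidt1/Sidt2 double knock-out (DKO; mice 151, 152 and 153, all male). The labels used here give no ages, and do not say how the knock-out alleles were made or whether the WT mice were littermates.

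The targeted genes were read first. Sidt2 had 3661 to 7775 counts in WT cells and 11 to 21 in cells labelled DKO, and 2121 to 6197 in WT exosomes against 13 to 18 in exosomes labelled DKO. Sidt1 went against the label: it had 0 to 3 counts in WT cells and 574 to 1722 in cells labelled DKO, and 0 to 4 against 309 to 483 in the exosomes. In what follows "DKO" is therefore the label of a library and not a checked genotype. Library totals ran from 7215083 to 32273898 counts. Cell RNA was extracted with Tri-Reagent and vesicle RNA with Trizol LS followed by a Qiagen column, so that compartment and extraction cannot be told apart. Genotype label and sex are also partly tied, since no female mouse carried the DKO label. Of the 10 dendritic cell markers none was at 0 in any group, and their summed level was 7539 to 13189 CPM (depth-normalised counts, the library size being scaled by TMM, edgeR's trimmed mean of M-values) in cells and 2139 to 3800 CPM in exosomes. All 10 were called lower in exosomes than in cells in WT and in DKO mice, beside 19.6% and 23.7% of all genes (median log2 fold change -2.59 and -3.20, by the test described below). Of the 8 macrophage markers 6 were called lower and 1 higher in WT, and 7 lower and 1 higher in DKO. These shifts accompany every comparison of exosomes with cells here, and their part in the mitochondrial values was not tested. The WT exosome libraries of mice 33 and 46 stand apart from the rest below, and results that rest on them are given with and without them.

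The mitochondrial genome is a small circle that encodes core subunits of the respiratory chain, the transfer RNAs and the RNAs of the mitochondrial ribosome. Both strands are copied as long precursors that are cut at the transfer RNAs, and most of the mature messengers then receive short poly(A) tails, which also complete several stop codons. COX1, COX2 and COX3 form the catalytic core of complex IV, which passes electrons to oxygen. CYTB is the mitochondrially encoded subunit of complex III, and ATP6 and ATP8 belong to the membrane part of ATP synthase. The 12S and 16S RNAs are the cores of the small and the large subunit of the mitochondrial ribosome.

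The ends of the 8 genes are shown because the coding genes differ in how their reading frames stop. They are also shown because ATP8 and ATP6 share bases, which bears on how reads could be counted. The sequences are the last 30 bases of each GENCODE M21 transcript (GRCm38, the mm10 build; chromosome MT, + strand), with the stop codon, or its only encoded base, in capitals. COX1 (chromosome MT, 5328 to 6872), COX2 (7013 to 7696), ATP6 (7927 to 8607) and ATP8 (7766 to 7969) end in a whole stop codon, whereas COX3 (8607 to 9390) and CYTB (14145 to 15288) end in a lone T. The ribosomal genes mt-Rnr1 (70 to 1024) and mt-Rnr2 (1094 to 2675) have no reading frame.
COX1: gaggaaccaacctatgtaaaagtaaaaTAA
COX2: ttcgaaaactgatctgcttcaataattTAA
COX3: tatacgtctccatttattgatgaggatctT
CYTB: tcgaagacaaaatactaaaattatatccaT
ATP6: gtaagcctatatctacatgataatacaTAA
ATP8: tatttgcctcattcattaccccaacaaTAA
mt-Rnr1: aagcatactggaaagtgtgcttggaataat
mt-Rnr2: atacgtacaccctctaacctagagaaggtt

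ATP8 and ATP6 overlap in different reading frames, so that no transfer RNA at which the precursor is cut lies between them. The shared stretch (chromosome MT, 7927 to 7969, + strand) has 43 bases, with the start codon of ATP6 and the stop codon of ATP8 in capitals.
ATP8 and ATP6 overlap: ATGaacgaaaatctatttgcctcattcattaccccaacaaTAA
It makes up 21.1% of ATP8 and 6.31% of ATP6. ATP6 and COX3 share 1 base, at position 8607. The lengths in the deposited table equal the GENCODE lengths: 1545 bases for COX1, 684 for COX2, 784 for COX3, 1144 for CYTB, 681 for ATP6, 204 for ATP8, 955 for mt-Rnr1 and 1582 for mt-Rnr2. No source used here says how reads in an overlap were assigned, whether strand was used, or how reads that also match nuclear copies of mitochondrial DNA were treated, so that ATP8 and ATP6 are uncertain in this respect.

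The 8 genes took 3.83%, 4.41% and 4.27% of the counts in the WT cell libraries of mice 33, 42 and 46. In the cell libraries labelled DKO they took 6.15% (mouse 151), 5.69% (mouse 152) and 5.68% (mouse 153), all above the WT cells. In exosomes the share was 2.05%, 4.09% and 9.41% for WT mice 33, 42 and 46, and 4.63%, 4.45% and 2.06% for mice 151, 152 and 153. The 2 exosome groups overlapped, and the highest and the lowest share of all 12 libraries both came from WT exosomes. Counting error is small beside this: the 95% Wilson interval for WT exosomes of mouse 33 ran from 2.04% to 2.06% (it covers counting error only). COX1 alone made up 64.3% to 76.1% of the counts of the 8 genes, CYTB 7.34% to 13.5% and ATP8 0.625% to 1.26%. The share of the library taken by both ribosomal RNAs was 0.251% to 0.425% in cells and 0.0376% to 0.458% in exosomes. These ribosomal values are what the library preparation left of the RNAs, and are not their cellular level. In such bulk libraries fewer cells of a type and less RNA per cell cannot be told apart.

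**Figure D1:**
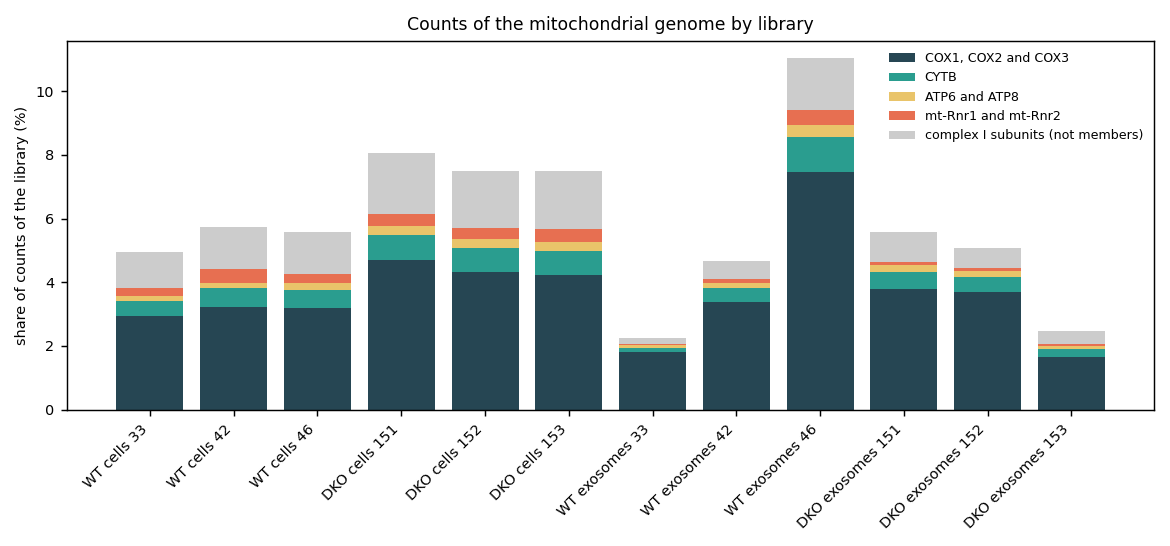
Share of each library's counts (%, stacked bars from 0) taken by the mitochondrially encoded genes, by class; each bar is 1 library, named by group and mouse. The 8 genes run from 2.05% in WT exosomes of mouse 33 to 9.41% in WT exosomes of mouse 46, while the cell libraries lie between 3.83% and 6.15%.

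Levels can be compared between genes only per length, as RPKM (TMM-scaled CPM per kilobase of gene length). COX1 had the highest level in all 4 groups, with 15886 ± 545 RPKM (SD, n = 3) in WT cells and 23744 ± 1589 (n = 3) in cells labelled DKO. CYTB came second with 4159 ± 475 and 6359 ± 166 RPKM, and COX2 was next with 2636 ± 304 and 4219 ± 250 RPKM; in cells the ranges of these genes did not overlap with their neighbours in the order. COX3, ATP6 and ATP8 lay close together in WT cells at 1970 ± 168, 1877 ± 67 and 1833 ± 308 RPKM, with overlapping ranges, so that their order is not resolved. The ribosomal RNAs were lowest in every group by mean. In cells mt-Rnr2 (1269 ± 364 RPKM in WT, 1601 ± 183 in DKO) had a higher mean than mt-Rnr1 (928 ± 143 and 1131 ± 65), with overlapping ranges in WT. In exosomes the order of their means was the opposite, 857 ± 1032 RPKM for mt-Rnr2 and 1004 ± 1083 for mt-Rnr1 in WT, and 280 ± 110 and 378 ± 153 in DKO, with overlapping ranges in both genotypes. In WT exosomes all neighbours in the order below COX1 overlapped. Across the 6 exosome libraries the highest CPM exceeded the lowest by 4.26-fold (COX2) to 14.5-fold (mt-Rnr2), and across the 6 cell libraries by 1.45-fold (mt-Rnr1) to 2.46-fold (ATP8).

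**Figure D2:**
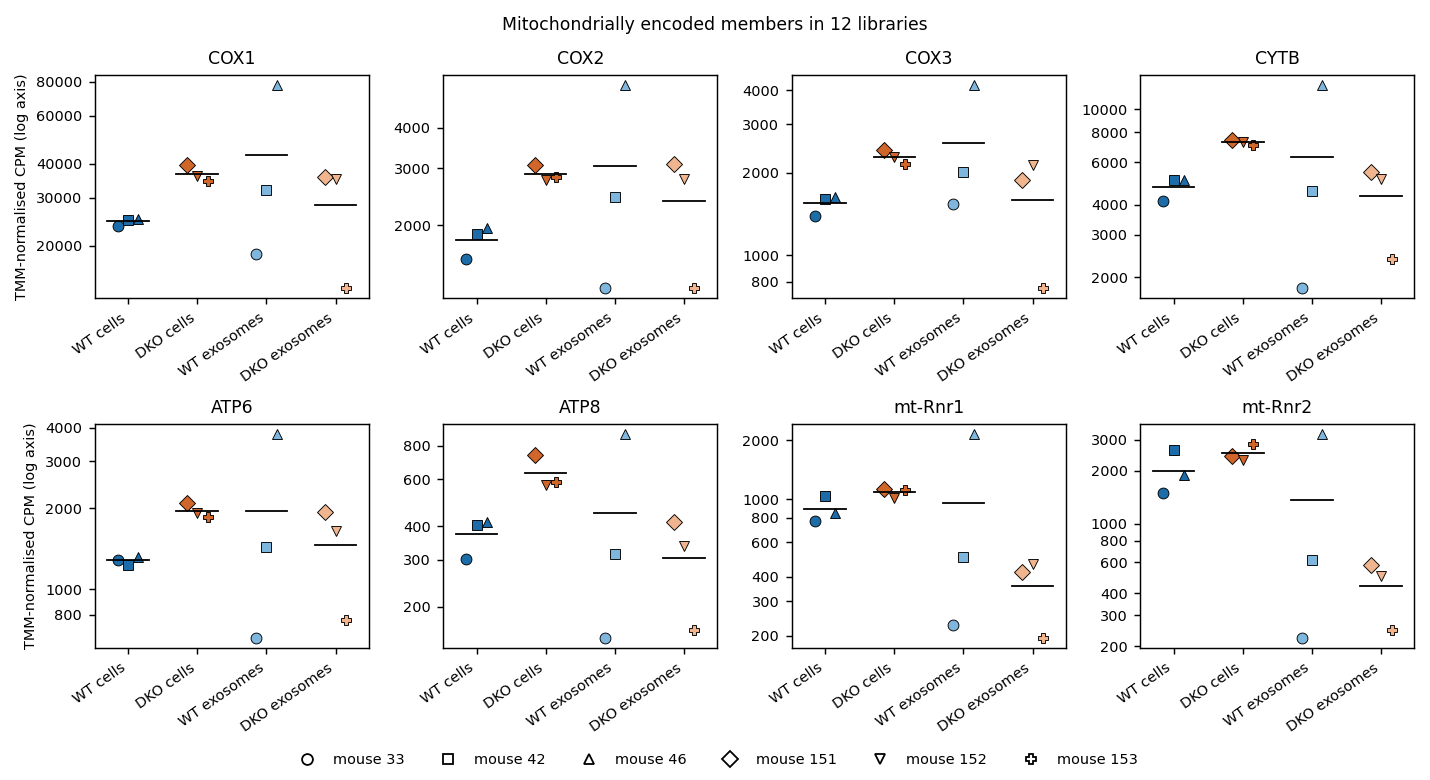
TMM-normalised CPM (log axis, a scale of its own in each panel) of the 8 genes; each point is 1 library, its symbol gives the mouse, and the horizontal line is the group's arithmetic mean (n = 3). WT exosomes of mouse 46 are the highest point in every panel (78010 CPM for COX1), and the lowest point in every panel is an exosome library.

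In WT mice none of the 8 genes differed between exosomes and cells beyond the spread of the exosome libraries. edgeR's quasi-likelihood test with Benjamini-Hochberg adjustment over 12829 genes (called below an adjusted p of 0.05) called 0 of 8, beside 38.3% of all genes tested (18.7% higher and 19.6% lower in exosomes). At an unadjusted p under 0.05 the count was 0 of 8 too, as it was 0 of 8 at the adjusted threshold by DESeq2 and by limma voom. Complex IV came first: COX1 had 23578, 24937 and 25116 CPM in WT cells of mice 33, 42 and 46, and 18655, 31985 and 78010 CPM in their exosomes. The exosome library of mouse 33 lay below all WT cell libraries and those of mice 42 and 46 lay above them, for a log2 fold change of 0.82 ± 0.45 (SE; adjusted p = 0.186). COX2 had 1569, 1875 and 1965 CPM in WT cells and 1278, 2445 and 5441 CPM in exosomes (log2 fold change 0.77 ± 0.45, adjusted p = 0.209). COX3 had 1394, 1607 and 1634 CPM in WT cells and 1533, 2004 and 4191 CPM in exosomes (0.75 ± 0.34, adjusted p = 0.120). COX3 was the only one of the 8 genes whose exosome library lay above the cell library in each of the 3 WT mice. How many of all genes tested did so by mouse was not counted.

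The other classes showed the same order of exosome libraries in WT mice. CYTB had 4131, 5082 and 5062 CPM in WT cells and 1801, 4581 and 12626 CPM in exosomes of mice 33, 42 and 46, a 7.01-fold range in exosomes. Its log2 fold change was 0.42 ± 0.58 (adjusted p = 0.592). ATP6 and ATP8 had log2 fold changes of 0.62 ± 0.53 (adjusted p = 0.378) and 0.28 ± 0.54 (adjusted p = 0.710). mt-Rnr1 had 771, 1036 and 852 CPM in WT cells and 227, 507 and 2143 CPM in exosomes (0.12 ± 0.68, adjusted p = 0.901). mt-Rnr2 had 1498, 2633 and 1893 CPM in WT cells and 222, 616 and 3227 CPM in exosomes (-0.56 ± 0.81, adjusted p = 0.613). For both ribosomal RNAs the exosome libraries of mice 33 and 42 lay below all WT cells and that of mouse 46 above them. Single libraries decided these values: without WT exosomes of mouse 46, mt-Rnr1 (-1.25, adjusted p = 0.0215) and mt-Rnr2 (-2.24, adjusted p = 0.00696) were called lower, and without WT exosomes of mouse 33, COX1 (1.20, adjusted p = 0.0287), COX2 (1.16, adjusted p = 0.0257) and COX3 (1.04, adjusted p = 0.0254) were called higher.

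The exosome libraries of mice 33 and 46 also differed in other transcripts. Malat1, a nuclear-retained RNA, had 46.7 CPM in WT exosomes of mouse 46, 2.99 to 7.58 CPM in the other 5 exosome libraries and 194 to 390 CPM in cells. Neat1, another nuclear RNA, had 33.8 CPM in the same library, the lowest of the 6 exosome libraries (up to 55.5), and 125 to 202 CPM in cells. The 8 neutrophil markers summed to 3635 CPM in WT exosomes of mouse 33 and to 557 CPM in those of mouse 46, against 1048 to 1885 CPM in WT cells, with none of the 8 at 0 in any group. The part of cellular RNA or of other cell types in the mitochondrial values of these libraries was not tested.

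In mice labelled DKO the ribosomal RNAs, ATP8 and CYTB were lower in exosomes than in cells. edgeR's test called 4 of 8 lower and 0 higher, beside 23.7% of 12316 genes called lower and 23.7% called higher, and all 8 log2 fold changes were below 0 (median -0.63; median of all genes -0.01). The exosome libraries lay entirely below the cell libraries for 5 of 8 genes, beside 29.7% of all genes tested. The largest difference was that of mt-Rnr2, which had 2424, 2313 and 2860 CPM in cells of mice 151, 152 and 153 and 580.2, 501 and 247 CPM in their exosomes. Its log2 fold change was -2.51 ± 0.27 (adjusted p = 3.37e-05), that is 5.70-fold lower. mt-Rnr1 had 1121, 1009 and 1112 CPM in cells and 422, 466 and 194 CPM in exosomes (-1.58 ± 0.26, adjusted p = 0.00054). Neither ribosomal RNA overlapped between the compartments.

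Among the coding genes in mice labelled DKO, ATP8 had 741, 571 and 586 CPM in cells and 414, 337 and 164 CPM in exosomes (-1.05 ± 0.27, adjusted p = 0.00745). ATP6, which overlaps it by 43 bases, had 2091, 1925 and 1860.3 CPM in cells and 1944, 1650.0 and 768 CPM in exosomes (-0.43 ± 0.26, adjusted p = 0.206), and the groups overlapped. CYTB had 7450.5, 7302 and 7073 CPM in cells and 5498, 5111 and 2391 CPM in exosomes (-0.74 ± 0.25, adjusted p = 0.0318). The oxidase subunits were not called: COX1 changed by -0.38 ± 0.29 (adjusted p = 0.316), COX2 by -0.27 ± 0.26 (adjusted p = 0.413) and COX3 by -0.52 ± 0.29 (adjusted p = 0.168). COX1 had 39387, 36073 and 34594 CPM in these cells and 35684, 34993 and 13942 CPM in the exosomes, of which only that of mouse 153 lay below all the cells. In exosomes of mouse 153 each of the 8 genes had its lowest level of the 3 libraries labelled DKO.

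The call of mt-Rnr2 held in all 16 alternatives of scaling, filter, tool and left-out library, with log2 fold changes from -2.80 to -2.22. CYTB lost its call in the fit on all 12 libraries and without the cells of mouse 151, 152 or 153 (adjusted p from 0.0749 to 0.276), and mt-Rnr1 and ATP8 lost theirs in the fit on all 12 libraries alone (adjusted p = 0.0697 and 0.116). In that fit the spread of WT exosomes enters the test.

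**Figure D3:**
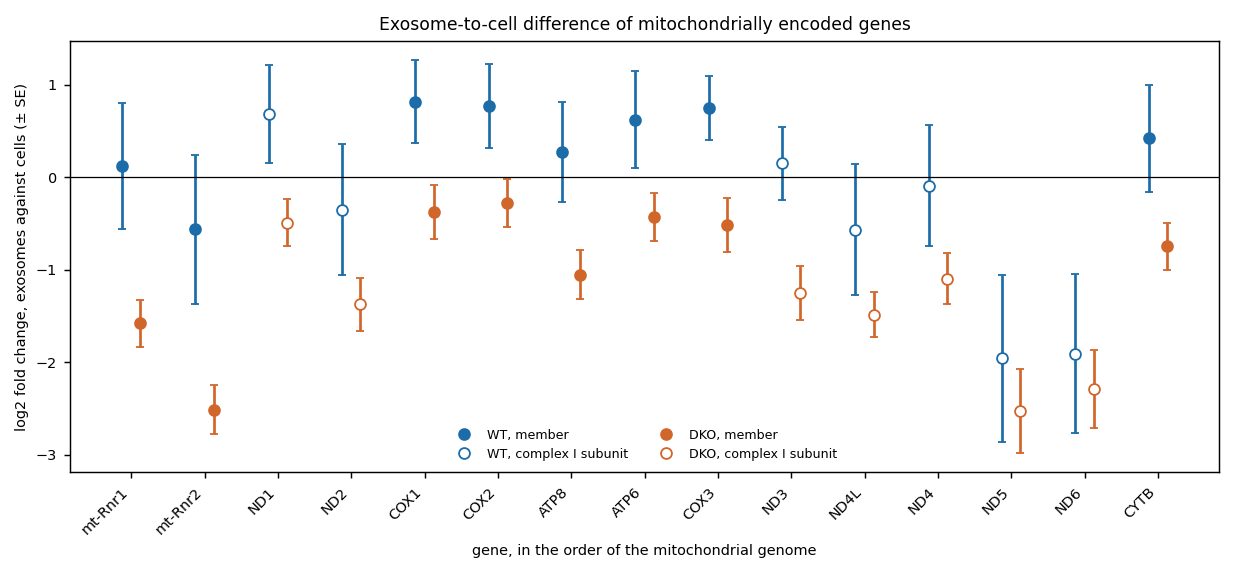
Log2 fold change of exosomes against cells (points, bars ± SE) for the 15 mitochondrially encoded genes, in genome order; blue is WT and orange is DKO by label, with filled points for the 8 genes described here and open points for complex I subunits. In the DKO mice mt-Rnr2 lies at -2.51 and the oxidase subunits between -0.52 and -0.27; the WT bars are longer.

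The complex I subunits of the same genome, listed as related genes, gave values of the same kind. In mice labelled DKO 6 of 7 were called lower in exosomes, beside 23.7% of all genes, among them ND4L (-1.49 ± 0.24, adjusted p = 0.000569), ND5 (-2.52 ± 0.45, adjusted p = 0.00179) and ND6 (-2.29 ± 0.42, adjusted p = 0.00225), and 0 of 7 were called in WT, beside 38.3% of all genes called in either direction. Over the 7 the median was -1.37 in DKO and -0.35 in WT. Counts of complex I subunits per 100 counts of the 6 coding genes described here were 31.8 to 34.2 in all cell libraries and 10.3 to 21.1 in all exosome libraries, without overlap. How often such ratios of other sets of genes separate was not counted. COX1, COX2, ATP6 and COX3 lie near each other in the genome and had the fold changes nearest 0 among the 8 genes in DKO mice, whereas ATP8, which lies within that stretch, was called lower. Across the 8 genes the fold change in exosomes had a rank correlation with GC content of 0.76 in WT and 0.64 in DKO mice, and with length of -0.14 and -0.29 (n = 8 genes of the same libraries, as a description).

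Ratios of counts within a library do not depend on scaling between libraries, and each mouse gave 1 ratio per compartment. mt-Rnr2 per mt-Rnr1 was 1.94, 2.54 and 2.22 in WT cells (mice 33, 42, 46) and 0.981, 1.21 and 1.51 in their exosomes. In mice 151, 152 and 153 it was 2.16, 2.29 and 2.57 in cells and 1.38, 1.08 and 1.27 in exosomes. The 6 cell libraries all lay above the 6 exosome libraries. How many pairs of other genes separate like this, or fall in each mouse, was not counted. Of single genes, 24.8% lay above and 30.6% below without overlap in WT exosomes, and 28.7% and 29.7% in exosomes labelled DKO. The mean exosome minus cell difference of the log2 ratio was -0.90 ± 0.23 (SD, n = 6 mice), 1.86-fold lower, and was negative in 6 of 6 mice (exact sign-flip permutation test, two-sided, p = 0.03125, adjusted over 3 ratios 0.03125, the smallest p that 6 mice can give).

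The large ribosomal RNA was also lower in exosomes relative to COX1. mt-Rnr2 per COX1 was 0.0635, 0.106 and 0.0754 in WT cells and 0.0119, 0.0192 and 0.0414 in WT exosomes. In mice labelled DKO it was 0.0615, 0.0641 and 0.0827 in cells and 0.0163, 0.0143 and 0.0177 in exosomes. The compartments did not overlap, and the highest exosome value was that of mouse 46. Here too, pairs of other genes were not counted. The log2 ratio changed by -2.01 ± 0.59 (SD, n = 6 mice), 4.02-fold lower, in 6 of 6 mice (exact sign-flip permutation test, p = 0.03125, adjusted p = 0.03125). Mouse 46 had the smallest difference at -0.87, and without it the mean was -2.24.

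The overlapping pair ATP8 and ATP6 was less even across mice. Gene counts do not tell separate RNAs from stretches of the same RNA, and how reads in the overlap were assigned is not known. ATP8 per ATP6 was 0.235, 0.330 and 0.314 in WT cells and 0.233, 0.221 and 0.234 in WT exosomes. In mice labelled DKO it was 0.354, 0.297 and 0.315 in cells and 0.213, 0.204 and 0.213 in exosomes. In exosomes the ratio stayed within 0.204 and 0.234 while the CPM of ATP6 and ATP8 varied 5.74-fold and 5.75-fold across the same 6 libraries. The log2 ratio changed by -0.48 ± 0.25 (SD, n = 6 mice), 1.39-fold lower, in 6 of 6 mice (exact sign-flip permutation test, p = 0.03125, adjusted p = 0.03125), but in mouse 33 by only -0.0088. With 5 mice the smallest possible p is 0.0625, so that no ratio can pass when a mouse is left out; each mean stayed negative then.

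**Figure D4:**
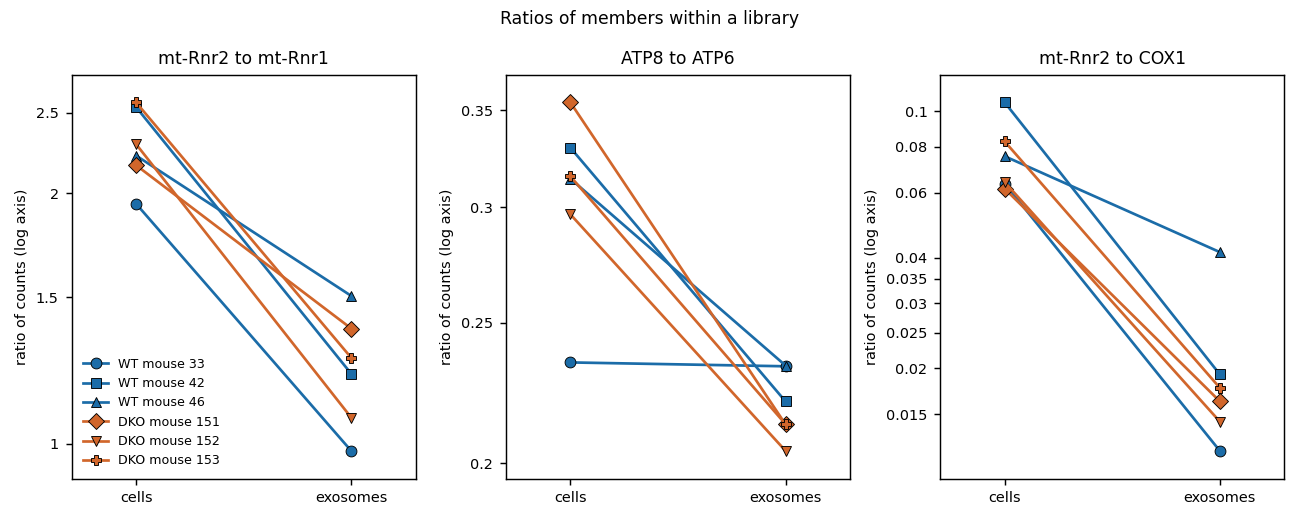
Ratio of the counts of 2 genes within a library (log axis) in cells and exosomes; each line joins the libraries of 1 mouse, blue for WT and orange for DKO by label. All 18 lines fall from cells to exosomes, that of ATP8 to ATP6 in mouse 33 by almost nothing.

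The same ratios were compared between the genotype labels, in cells and in exosomes, 6 comparisons in all. None passed (exact permutation test of 3 against 3, two-sided, adjusted p from 0.6 to 0.9), and 0.1 is the smallest p this design allows. For ATP8 per ATP6 in exosomes the 3 libraries labelled DKO lay below the 3 WT libraries (difference of the log2 ratio -0.13, p = 0.1 by the exact permutation test, adjusted p = 0.6). The other 5 comparisons overlapped.

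In cells, the coding genes were higher in libraries labelled DKO than in WT. All 6 coding genes had every DKO cell library above every WT cell library, beside 8.24% of 13106 genes tested, and edgeR's test called 3 of 8 higher, beside 0.267% of all genes. The called genes were COX1, COX2 and ATP6. COX1 rose from 23578, 24937 and 25116 CPM in WT cells to 39387, 36073 and 34594 CPM, a log2 fold change of 0.59 ± 0.11 (adjusted p = 0.0459). COX2 rose from 1569, 1875 and 1965 CPM to 3079, 2754 and 2825 CPM (0.69 ± 0.12, adjusted p = 0.0348). ATP6 rose from 1285, 1229.7 and 1320.0 CPM to 2091, 1925 and 1860.3 CPM (0.63 ± 0.10, adjusted p = 0.0327).

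The other 3 coding genes had estimates of like size and missed the threshold: COX3 0.57 ± 0.11 (adjusted p = 0.0610), CYTB 0.62 ± 0.12 (adjusted p = 0.0546) and ATP8 0.77 ± 0.15 (adjusted p = 0.0563). COX3 went from 1394, 1607 and 1634 CPM in WT cells to 2417, 2281 and 2146 CPM in cells labelled DKO. CYTB went from 4131, 5082 and 5062 CPM to 7450.5, 7302 and 7073 CPM, and ATP8 from 302, 406 and 414 CPM to 741, 571 and 586 CPM. The ribosomal RNAs overlapped between the labels, mt-Rnr1 with 0.30 ± 0.13 (adjusted p = 0.454) and mt-Rnr2 with 0.35 ± 0.19 (adjusted p = 0.531). The cell library of mouse 42 had more mt-Rnr2 (2633 CPM) than those of mice 151 and 152. Whether the coding genes differed from the ribosomal RNAs in this respect was read only from the ratio of mt-Rnr2 to COX1 in cells. Its libraries overlapped between the labels (difference of the log2 ratio -0.21, p = 0.6 by the exact permutation test, adjusted p = 0.84). With 3 against 3 libraries this test cannot go below 0.1, so that it could not pass and does not decide the question.

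The calls in cells were not stable, while the direction was. All 8 genes had a higher estimate in cells labelled DKO in each of 16 alternatives (COX1 from 0.49 to 0.63). The number called was 6 by DESeq2 and by limma voom, and 0 with total-count scaling, with sex as a covariate and in the fit on all 12 libraries. It was 0 without cells of mouse 42, 151, 152 or 153, 1 without cells of mouse 46, and 6 without those of mouse 33. The number called over all genes moved as well. It was 178 by DESeq2, 220 by limma voom, 11 with sex as a covariate and 7 in the fit on all 12 libraries. Without cells of mouse 42, 151 and 152 it was 22, 14 and 5, and without those of mouse 33 it was 119. It moved less without cells of mouse 46 or 153. Over all genes tested, 53 were called with TMM and 38 with total-count scaling, which moved the median of all genes from -0.01 to -0.11. Of other genes that moved with the label, Nnt, a mitochondrial inner-membrane transhydrogenase and known to differ between C57Bl/6 substrains, had 12.2 to 14.9 CPM in WT cells and 28.7 to 40.6 CPM in cells labelled DKO (1.37 ± 0.15, adjusted p = 0.00233; this gene was chosen after its values were seen). A difference of substrain and the knock-out label cannot be told apart here.

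With 0.267% of all genes called higher in cells labelled DKO, lists of this size would hold few or no calls whatever their function, and the counts of the nuclear lists are given as a description. Of these lists, 0 of 8 complex III subunits, 0 of 14 complex IV subunits, 0 of 17 ATP synthase subunits and 0 of 17 complex IV assembly factors passed edgeR's test between the cells. The same count was 0 of 28 for mitochondrial RNA factors, 0 of 15 for ribosomal RNA modification and assembly factors and 0 of 16 for membrane and matrix proteins. The median log2 fold change was 0.35 for complex IV, 0.20 for ATP synthase, 0.02 for complex III and 0.10 for the membrane and matrix proteins, beside 0.61 for the 8 genes and -0.01 for all genes. Among those with the smallest p, the complex IV subunit Cox6c had 0.43 ± 0.13 (adjusted p = 0.294) and Vdac2, a channel of the outer membrane, 0.53 ± 0.15 (adjusted p = 0.213). Of the mitochondrially encoded complex I subunits 3 of 7 were called higher, beside 0.267% of all genes: ND4 (0.61 ± 0.10, adjusted p = 0.0336), ND5 (0.64 ± 0.11, adjusted p = 0.0336) and ND6 (0.77 ± 0.11, adjusted p = 0.0173), with a median of 0.63.

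Summed levels of 3 lists of markers of other cell types did not overlap between the labels in cells, although few of their genes were called. Of 13106 single genes tested, 8.24% lay above and 9.04% below without overlap in cells labelled DKO, and 0.267% were called higher. No such share was computed for sums of lists, and the number of all genes called in either direction is given above. The 6 B cell markers summed to 69.9 to 133 CPM in WT cells and 31.8 to 48.8 CPM in cells labelled DKO, and the 6 mast cell and basophil markers to 35.5 to 41.2 and 17.6 to 25.7 CPM. Of 5 tested in each of these lists, 1 B cell marker (Ighm, -1.39 ± 0.24, adjusted p = 0.0496) and 0 mast cell and basophil markers were called by edgeR's test, all with estimates below 0. The 5 megakaryocyte and platelet markers summed to 293 to 354 CPM in WT cells and 375 to 507 CPM in cells labelled DKO, which rests on Ppbp (0.75 ± 0.16, adjusted p = 0.102) and Pf4 (0.30 ± 0.16, adjusted p = 0.518). The only called gene of that list, Itga2b, was lower (-1.57 ± 0.28, adjusted p = 0.0366). None of the markers in these 3 lists was at 0 in either group of cells. The sums of the dendritic cell, macrophage and neutrophil markers overlapped between the labels, and those of T and NK cells and of erythroid cells were at most 4.58 and 0.793 CPM. All 10 dendritic cell markers had estimates below 0 in cells labelled DKO (median -0.20, highest -0.01), and none was called. Macrophage and neutrophil markers had estimates on both sides of 0, and none was called. The part of these cell types in the mitochondrial difference was not tested.

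**Figure D5:**
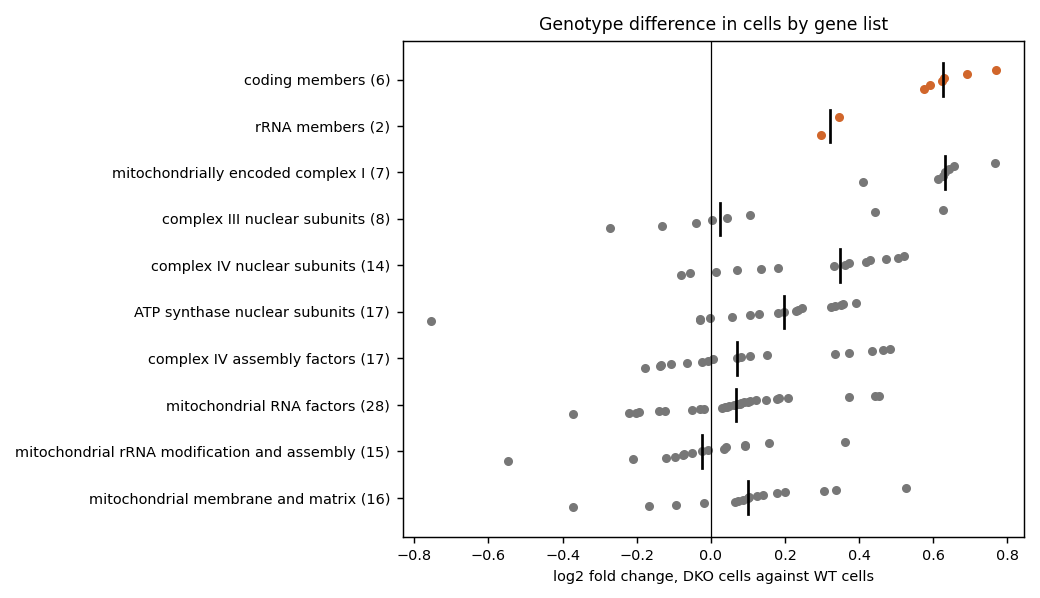
Log2 fold change of cells labelled DKO against WT cells for each gene tested (points, spread vertically for legibility) by gene list, with the number of genes in brackets and the median as a vertical bar. The 6 coding genes lie between 0.57 and 0.77, and the complex IV nuclear subunits have a median of 0.35.

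In exosomes, none of the 8 genes was called between the genotype labels. edgeR's test called 0 of 8, with 0 of 8 also at an unadjusted p under 0.05 and 0 of 8 by DESeq2 and limma voom at the adjusted threshold, beside 0.0332% of 12064 genes called in either direction. All 8 estimates were below 0, from -0.37 ± 0.51 for COX2 to -1.63 ± 0.87 for mt-Rnr2 (adjusted p = 0.556), and the libraries overlapped for each gene. Without WT exosomes of mouse 46, 6 of 8 estimates changed sign, for instance COX1 from -0.62 to 0.17 and ATP6 from -0.44 to 0.50. With sex as a covariate, where mouse 46 is the only male of the WT group, the estimates lay farther from 0, from -1.20 for COX2 to -2.88 for mt-Rnr2, and none was called.

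Whether the exosome-to-cell difference depended on the genotype label was tested as an interaction on all 12 libraries. edgeR's test called 0% of 12970 genes, and 776 genes had an unadjusted p under 0.05. None of the 8 genes was called by edgeR, DESeq2 or limma voom, and 1 of 8, COX3, had an unadjusted p under 0.05. COX3 had an interaction of -1.26 ± 0.52 on the log2 scale (edgeR's test, adjusted p = 0.715), and the others lay between -1.95 ± 1.07 (mt-Rnr2) and -1.04 ± 0.59 (COX2). So the calls for mt-Rnr1, mt-Rnr2, ATP8 and CYTB in mice labelled DKO, and their absence in WT mice, were not shown to differ from each other.

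The counts of nuclear partners called between exosomes and cells are read against all genes tested, of which 18.7% were higher and 19.6% lower in WT exosomes, and 23.7% higher and 23.7% lower in exosomes labelled DKO. In WT, 9 of 14 complex IV nuclear subunits were called higher in exosomes and 0 lower, such as Cox8a (1.70 ± 0.25, adjusted p = 0.00297) and Cox7a2 (1.39 ± 0.27, adjusted p = 0.00693), and 4 of 14 were higher in mice labelled DKO, near the share of all genes, with Cox8a at 1.19 ± 0.16 (adjusted p = 0.00015). For ATP synthase 12 of 17 were higher in WT, and 8 of 17 higher and 1 lower in DKO, with Atp5g1, a subunit of the proton-conducting ring, at 1.46 ± 0.23 and 1.12 ± 0.20 (adjusted p = 0.00362 and 0.00083). Of complex III subunits 5 of 8 were higher in WT, and 5 were higher and 3 lower in DKO. Cyc1, the cytochrome that works beside CYTB in this complex, was higher by 1.01 ± 0.16 and 0.98 ± 0.17 (adjusted p = 0.00357 and 0.000745). The assembly factors of complex IV had 9 of 17 higher in WT, and 10 of 17 higher and 1 lower in DKO, with Cox18, which inserts part of COX2 into the membrane, at 1.80 ± 0.25 and 1.55 ± 0.20 (adjusted p = 0.00249 and 0.000141).

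Of 28 factors that act on mitochondrial RNA, 5 were higher and 2 lower in WT exosomes, and 5 higher and 9 lower in exosomes labelled DKO. These counts and those of the next lists are to be read beside the shares of all genes just given. Fastk, a mitochondrial RNA-binding protein, was higher in both (1.52 ± 0.21 and 1.35 ± 0.15, adjusted p = 0.00246 and 4.25e-05), and Fastkd2, which is needed for assembly of the large mitochondrial ribosomal subunit, was lower in both (-0.91 ± 0.25 in WT and -0.98 ± 0.21 in DKO, adjusted p = 0.0246 and 0.00301; its WT value was added after it was seen). Of 15 factors that modify or assemble mitochondrial ribosomal RNA, 4 were higher in WT, and 6 higher and 1 lower in DKO. Among them Mrm1, a methyltransferase of the 16S RNA, stood at 1.14 ± 0.19 and 1.02 ± 0.26 (adjusted p = 0.00469 and 0.00786). Of 16 membrane and matrix proteins 4 were higher in WT, and 4 higher and 1 lower in DKO, with Tomm20, an import receptor, at 1.19 ± 0.25 and 0.61 ± 0.13 (adjusted p = 0.00948 and 0.00249).

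In cells the coding genes varied together, as did both ribosomal RNAs, and a coding gene with a ribosomal RNA less so. In exosomes all 8 genes varied together. Across the 6 cell libraries Pearson's r of log2 CPM was 0.92 to 0.99 between coding genes, 0.50 to 0.86 between a coding gene and a ribosomal RNA, and 0.95 between both ribosomal RNAs. Across the 6 exosome libraries the same ranges were 0.84 to 1.00, 0.88 to 0.97, and 0.99. The libraries share their depth and scaling, and in cells the genotype label, so that these are descriptions. In exosomes a few libraries far from the rest weigh on r. COX1 had 13942, 18655 and 78010 CPM in exosomes of mice 153, 33 and 46, against 31985 to 35684 CPM in the others. No r without them was computed. Outside the mitochondrial genome, the genes most like COX1 over all 12 libraries, among 8726, were Gar1 (r = 0.79), Ciao1 (0.79), Borcs7 (0.76), Tm2d3 (0.72) and Cd151 (0.71). Those most like mt-Rnr2 were Trmt5 (r = 0.91), Gemin2 (0.90), Tmem41b (0.90), Dnajb9 (0.90) and P2ry14 (0.89). Both compartments are pooled in these values, so that a difference between cells and exosomes enters r.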

How the data were processed

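RNA was sequenced as 80 bp paired-end reads on a NextSeq from TruSeq libraries of 200 ng total RNA, per the labels' protocols. The authors deposited raw counts per gene. The submitters' processing notes name featureCounts and the build mm10. No source used here gives the aligner, the annotation release or the strand setting. The 12 deposited library tables equal the series table. Rows without a symbol (1904 of 27179; 1.06% to 7.88% of counts) stayed in the fits.

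Counts were fitted with edgeR 4.0.16 (robust quasi-likelihood test, filterByExpr by group, TMM, Benjamini-Hochberg over all genes tested; R 4.3.3), each pair of groups on its own 6 libraries. All 8 genes passed the filter in each fit. Alternatives used DESeq2 1.42.0, limma 3.58.1 (voom with quality weights), other scalings and filters, a sex term, and fits without each library. The fits were tested on simulated counts with the same dispersion for every gene and library. That setting does not cover the wide spread of the WT exosome libraries. Sequences come from GENCODE M21 transcripts. Their coordinates for the 8 genes equal those of RefSeq (GRCm38.p6), and their lengths equal those of the deposited table, which gives no coordinates.

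Named related genes are up to 3 per list with the smallest p in a comparison, and for likeness the 5 genes with the highest Pearson correlation among those with a mean log2 CPM of at least 3. The genes and lists were chosen with earlier results of these data known. Cell and exosome libraries with the same mouse number come from the same mouse, per the labels, and are therefore paired; over 12970 genes their deviations from the group means correlated by -0.002 (mouse 33) to 0.185 (mouse 151). Replicates differed by more than sampling noise (chi-square per degree of freedom at least 11.3). No label says whether further libraries were made from a mouse.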

Additional observations from a re-analysis of the deposited data

Results flagged for a closer look

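COX3 is singled out because its exosome minus cell difference had opposite signs in the mice of each label: it was positive in WT mice 33, 42 and 46 (0.14, 0.32 and 1.36 on the log2 scale) and negative in mice 151, 152 and 153 (-0.36, -0.09 and -1.50). How many of all genes tested show this pattern of signs was not counted, so that it does not set COX3 apart from them. The interaction was -1.26 (edgeR quasi-likelihood test, adjusted p = 0.715), and over its 21 alternatives it lay between -1.53 and -0.71, none of them called.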

How the results depend on the processing

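The cell comparison was the least stable: 6 members were called without a filter, by DESeq2, by limma voom and without both libraries of mouse 33, 0 with total-count scaling, in the fit on all 12 libraries and with sex as a covariate, and 0 to 6 when a library was left out. In DKO exosomes against cells 1 was called in the fit on all 12 libraries (6 without a filter), and in WT exosomes against cells 0 to 3 when a library was left out. The fit with the mouse as a replicate block called 0 members in WT, 4 in DKO and 0 in the interaction, as without it. Signs turned for ATP8 and mt-Rnr1 in WT exosomes against cells with total-count scaling (-0.10 and -0.26), limma voom (-0.18 and -0.61) and the paired block (-0.075 and -0.52), and for CYTB with the block (-0.00111). With a library left out, the range reached -0.56 to 0.89 for CYTB, -0.27 to 1.06 for ATP6, -0.65 to 0.71 for ATP8 and -1.25 to 0.61 for mt-Rnr1. In DKO COX2 ranged from -0.50 to 0.030. Between exosome labels, the ranges with a library left out were COX1 -0.95 to 0.17, COX2 -0.71 to 0.38, CYTB -0.97 to 0.46, ATP6 -0.82 to 0.50, ATP8 -0.96 to 0.39 and mt-Rnr2 -2.10 to 0.097. The sex covariate gave COX1 -1.48, COX2 -1.20, COX3 -1.41, CYTB -1.55, ATP6 -1.39, ATP8 -1.54, mt-Rnr1 -2.58 and mt-Rnr2 -2.88 there. Compartment ratios ranged from -0.96 to -0.86 (mt-Rnr2 to mt-Rnr1), -0.57 to -0.42 (ATP8 to ATP6) and -2.24 to -1.92 (mt-Rnr2 to COX1), all at 0.0625, the smallest p for 5 mice. Genotype ratios that changed sign ranged from -0.024 to 0.17 (mt-Rnr2 to mt-Rnr1, cells), -0.0027 to 0.24 (ATP8 to ATP6, cells), -0.13 to 0.18 (mt-Rnr2 to mt-Rnr1, exosomes) and -0.82 to 0.082 (mt-Rnr2 to COX1, exosomes). Counted without the ribosomal RNAs, the mean share was 5.48% in place of 5.84% in DKO cells and 3.86% in place of 4.17% in WT cells. Genes called over the whole table ranged from 2284 to 8316 (main 4909) for WT exosomes against cells, 5 to 220 (53) for cells and 3 to 146 (4) for exosomes between labels, and reached 163 (0) by limma voom for the interaction. Total-count scaling moved the median of all genes from -0.02 to -0.39 in WT exosomes against cells. Apart from the replicate block and the scalings named, the cause of these changes was not tested.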
